A study of Mus musculus with 13 samples.

Results

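The genes described here are 7 genes of MHC class II antigen presentation, measured in the mouse duodenum, among 12393 genes on the array. They are H2-Aa, H2-Ab1, H2-Eb1, H2-DMa, Cd74, Ciita and Ctss. A gene was read from the probe set that the platform annotation assigns to its symbol alone. Where several such probe sets existed, the one with the highest mean level over all 13 arrays was used, and all 7 genes had at least 1. Levels are the authors' RMA values, which are on a log2 scale, so a difference of 1 is a doubling.

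The mice were wild type or mutant by their labels, all on a mixed strain background. In the published study the mutation is switched on in the intestinal epithelium through a Cre recombinase driven by the villin promoter. From 5 weeks of age each mouse received normal diet (ND), high-fat diet (HFD) or high-fat diet with butyrate, a fatty acid made by gut bacteria, and was killed after 22 weeks of diet. Normal diet is represented by 2 wild-type and 3 mutant arrays, the high-fat diet by 2 of each genotype, and butyrate by 1 wild-type array and 3 mutant ones. Whole duodenum was used, so every level is a mixture of epithelium and the immune cells within it. Array identifiers lie in a different number range for each diet, so diet and array series cannot be told apart, whereas both genotypes are present in each range. Array medians ran from 6.04 to 6.14, and arrays of the same group correlated across genes with a median r of 0.9885. Epithelial markers such as Epcam, Vil1 and Krt20 were high on every array (list means of 11.49 to 11.81).

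MHC class II molecules are pairs of an alpha and a beta chain that display peptides from engulfed proteins to CD4+ helper T cells. The chains are assembled with the invariant chain, encoded by Cd74, which cathepsin S, encoded by Ctss, helps to cut down to a short remnant. H2-DM exchanges that remnant for a peptide. CIITA switches on the genes of the chains, the invariant chain and H2-DM without binding DNA itself. In the intestine dendritic cells, macrophages and B cells carry class II constantly, and epithelial cells of the small intestine can carry it as well, above all under interferon gamma.

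CIITA acts through RFX proteins on an X box and NF-Y on a Y box, which lie at a set distance from each other before class II genes. The promoters of H2-Aa, H2-Eb1 and Ctss are shown because the first 2 are chains that hold both boxes and Ctss is the member that moved least. Each line holds the 150 bases before the start site, 5′ to 3′ along the gene, from RefSeq on GRCm38.p6. H2-Aa lies on the minus strand at chr17:34287824-34287973, H2-Eb1 on the plus strand at chr17:34305717-34305866 and Ctss on the plus strand at chr3:95526636-95526785. Capitals mark the X box core GCAAC and the Y box CTGATTGG in the 2 chains, and the interferon response element core GAAANNGAA in Ctss.
H2-Aa: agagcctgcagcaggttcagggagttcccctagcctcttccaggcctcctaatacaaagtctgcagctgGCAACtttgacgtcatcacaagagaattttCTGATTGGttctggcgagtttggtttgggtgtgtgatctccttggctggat
H2-Eb1: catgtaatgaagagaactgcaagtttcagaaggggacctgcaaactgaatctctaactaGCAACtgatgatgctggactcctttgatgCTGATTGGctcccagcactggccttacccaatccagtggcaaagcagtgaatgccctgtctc
Ctss: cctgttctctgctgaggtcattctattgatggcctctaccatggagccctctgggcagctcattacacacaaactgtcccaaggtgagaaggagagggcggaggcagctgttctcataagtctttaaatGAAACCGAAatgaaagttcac
The X box core began at position -81 and the Y box at -51 in H2-Aa, and at -91 and -62 in H2-Eb1, counted from the start site. The core thus began 30 bases before the Y box in H2-Aa and 29 bases before it in H2-Eb1. Over all 32851 promoter windows of 300 bases in the table, read on both strands, GCAAC was present in 35.2%, CTGATTGG in 4.1% and GAAANNGAA in 8.56%. The pair, with GCAAC beginning 25 to 35 bases before CTGATTGG on one strand, was found in 22 windows, or 0.067%. These letters and this distance were chosen after the class II promoters had been read. Of 9 class II genes with a window, 4 held the pair, namely H2-Aa, H2-Eb1, H2-Oa and H2-Eb2, and H2-DMa, Ctss, H2-Ob, H2-DMb1 and H2-DMb2 did not hold it within their windows. The match in Ctss stood at position -21. A match describes the letters only. The pair did not sort the members by their fall. H2-DMa, without the pair in its windows, fell most in the results below. Its r with H2-Aa over 13 arrays was 0.96, against 0.88 for H2-Eb1 with H2-Aa. Whether the pair bears on the levels was not tested.

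On normal and high-fat diet the class II genes were lower in mutant than in wild-type duodenum. Over the 9 arrays of these 2 diets, with diet as a term, 6 of the 7 genes passed the test and all 6 fell, by 1.07 to 1.87 on the log2 scale, which is 2.10-fold to 3.66-fold. Ctss was the member that missed the threshold. The test was limma's, with adjustment over all 12393 genes at 0.05, and 4.63% of all genes passed it in either direction and 2.39% as lower. The median difference of the 7 genes was -1.41, against 0.01 for all genes. With the 4 butyrate arrays included, none passed, as described further on.

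H2-Aa encodes the alpha chain of the I-A molecule. Its level was 11.58 and 12.61 on the wild-type arrays on normal diet and 10.39, 10.53 and 10.42 on the mutant arrays. On high-fat diet it was 11.50 and 11.51 in wild type against 9.66 and 9.82 in mutants. Every mutant array of these diets therefore lay below every wild-type array, and the 2 mutant high-fat arrays were the lowest of all 13. The fitted difference over the 9 arrays was -1.70 ± 0.17 (SE, adjusted p = 0.00106), the tenth smallest p among all genes. On high-fat diet with butyrate the wild-type array read 11.07 and the mutant arrays 12.03, 10.61 and 11.20, so the genotypes overlapped there.

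H2-Ab1 encodes the beta chain that pairs with H2-Aa. It read 10.79 and 11.93 in wild type and 9.36, 9.63 and 9.38 in mutants on normal diet. On high-fat diet it read 10.83 and 10.93 in wild type and 9.38 and 9.08 in mutants. The groups did not overlap on either diet, and the difference over the 9 arrays was -1.79 ± 0.19 (adjusted p = 0.0018, 3.45-fold). With butyrate the wild-type array was at 10.40, above 2 of the mutant arrays, which read 11.46, 9.66 and 10.34.

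H2-Eb1 encodes the beta chain of the I-E molecule. On normal diet it stood at 10.95 and 11.51 in wild type and at 9.70, 9.94 and 9.80 in mutants. On high-fat diet it stood at 11.22 and 10.74 in wild type and at 10.24 and 9.59 in mutants. All 5 mutant arrays were again below all 4 wild-type arrays, with a difference of -1.26 ± 0.17 (adjusted p = 0.0043, 2.39-fold). The smallest gap between genotypes on 1 diet was that between 10.74 and 10.24 on high-fat diet. With butyrate the values were 10.28 in wild type and 11.19, 9.96 and 10.28 in mutants.

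The invariant chain gene Cd74 had one of the highest levels on the array, with a mean at the 97.1 percentile of all genes. It read 11.74 and 12.59 in wild type and 10.42, 10.78 and 10.42 in mutants on normal diet. On high-fat diet it read 12.00 and 11.96 in wild type and 11.05 and 10.58 in mutants. The genotypes did not overlap on either diet, and the difference was -1.41 ± 0.18 (adjusted p = 0.0035, 2.67-fold). With butyrate Cd74 was at 10.64 in the wild-type array, the lowest wild-type value of the gene, and at 12.12, 10.63 and 11.06 in mutants.

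H2-DMa encodes the alpha chain of the H2-DM peptide exchanger, and its fall was the largest of the 7. On normal diet it was at 8.06 and 9.62 in wild type and at 6.75, 6.88 and 6.66 in mutants. On high-fat diet it was at 7.999 and 8.17 in wild type and at 6.61 and 6.31 in mutants. The lowest wild-type array thus exceeded the highest mutant array by more than 1, and the difference was -1.87 ± 0.26 (adjusted p = 0.0048). With butyrate it read 7.31 in wild type and 8.43, 6.74 and 7.56 in mutants.

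Ctss, the protease, varied over a range of 0.56 across all 13 arrays, against ranges of 1.79 to 3.32 for the other 6 genes. It read 11.85 and 11.90 in wild type and 11.43, 11.40 and 11.49 in mutants on normal diet, where the genotypes did not overlap. On high-fat diet the wild-type arrays read 11.76 and 11.58 and the mutant arrays 11.57 and 11.54, so that the nearest arrays of the 2 genotypes almost met. The difference over the 9 arrays, -0.29 ± 0.08, missed the threshold (adjusted p = 0.0649), although it passed (-0.35, adjusted p = 0.0357) once array 2 of the wild type on high-fat diet was left out. With butyrate Ctss was at 11.76 in wild type and at 11.63, 11.34 and 11.49 in mutants, the one member whose mutant arrays were all below the wild-type array.

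Ciita, the regulator of the class II chain genes, was dim, with a mean of 5.02 at the 29.2 percentile of all genes. On normal diet it read 5.02 and 5.97 in wild type and 4.33, 4.55 and 4.18 in mutants. On high-fat diet it read 5.66 and 5.97 in wild type and 5.09 and 4.58 in mutants. Within each diet the genotypes did not overlap, but wild-type normal-diet array 1 lay below mutant high-fat array 1. The difference over the 9 arrays was -1.07 ± 0.19 (adjusted p = 0.0152, 2.10-fold). With butyrate the wild-type array and mutant array 1 were both at 4.99, and the other mutant arrays at 4.75 and 5.19.

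**Figure D1:**
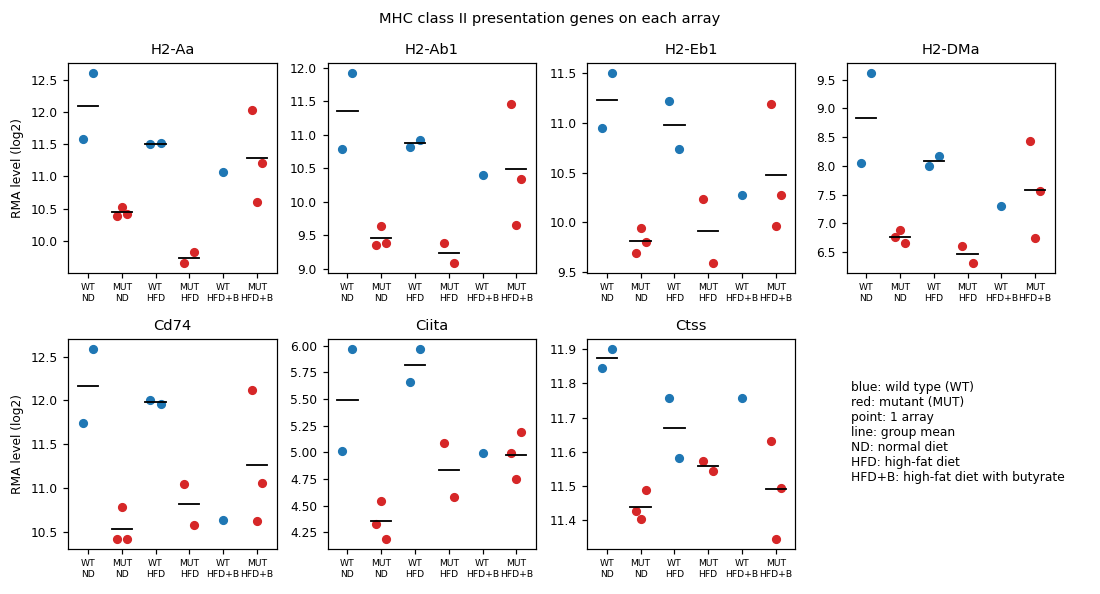
RMA level (log2) of each of the 7 genes on each of the 13 arrays, by genotype and diet, with 1 point an array and a line at the mean of each group of more than 1 array; the vertical axes differ between genes and do not start at 0. On normal and high-fat diet the mutant points of each gene lie below the wild-type points of the same diet, and with butyrate they spread around the single wild-type point for every gene but Ctss.

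Diet by diet, all 7 genes were lower on every mutant array than on every wild-type array of the same diet, both on normal and on high-fat diet. Of all genes 12.4% were separated in this direction on normal diet, 20.2% on high-fat diet and 5.82% on both. No member passed the adjusted test within a single diet. On normal diet the differences ran from -0.44 ± 0.10 for Ctss to -2.08 ± 0.46 for H2-DMa, all 7 with an unadjusted p under 0.05 and an adjusted p of 0.142 by limma, and 0.0242% of all genes passed. On high-fat diet they ran from -0.11 ± 0.11 for Ctss to -1.77 ± 0.38 for H2-Aa, with 6 of 7 under an unadjusted 0.05, adjusted p between 0.161 and 0.747, and 0.0403% of all genes passing. These 2 counts of 0 depended on arrays outside the comparison, because the spread is estimated from all groups. Without mutant butyrate array 2, 6 members passed on normal diet and H2-Aa passed on high-fat diet. Without wild-type normal-diet array 1, H2-DMa (-2.86) and Ciita (-1.62) passed on normal diet.

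The size of the genotype difference was not shown to change between normal and high-fat diet. The difference on high-fat diet minus that on normal diet lay between -0.12 (H2-Aa) and 0.46 (Cd74). None of the 7 passed by limma, 1 had an unadjusted p under 0.05, the adjusted p were 0.915 or more, and 0.00807% of all genes passed.

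With butyrate the mutant arrays were not lower as a group. Mutant minus wild type, with 3 mutant arrays set against 1, the differences were -0.27 ± 0.12 for Ctss, -0.02 ± 0.33 for Ciita and 0.09 to 0.63 for the other 5, of which Cd74 had the largest. None of the 7 passed by limma, none had an unadjusted p under 0.05, and 0% of all genes passed. The mutant butyrate arrays differed among themselves. The mean level of the 7 genes was 10.26 on array 1, 9.10 on array 2 and 9.59 on array 3, against 9.49 on the wild-type array. Array 2 was within the range of the mutants on normal and high-fat diet (8.79 to 9.10), and array 1 within that of the wild types (9.997 to 10.88). The wild-type butyrate array lay between these ranges and was the lowest wild-type array for every member but Ctss. Without mutant array 1 the signs of H2-Aa (-0.16), H2-Ab1 (-0.40), H2-Eb1 (-0.16) and H2-DMa (-0.16) turned.

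The genotype difference with butyrate minus that on high-fat diet was between 0.97 and 1.98 for the 6 genes other than Ctss, and -0.16 for Ctss. None passed by limma, 5 had an unadjusted p under 0.05, and 0.00807% of all genes passed. Against the mean of the other 2 diets the same difference was 2.12 ± 0.68 for H2-DMa, 2.02 ± 0.54 for Cd74 and 1.92 ± 0.51 for H2-Aa. There too none of the 7 passed, with 6 at an unadjusted p under 0.05, the lowest adjusted p at 0.639 and 0.00807% of all genes passing. A difference of this kind rests on 1 wild-type array.

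**Figure D2:**
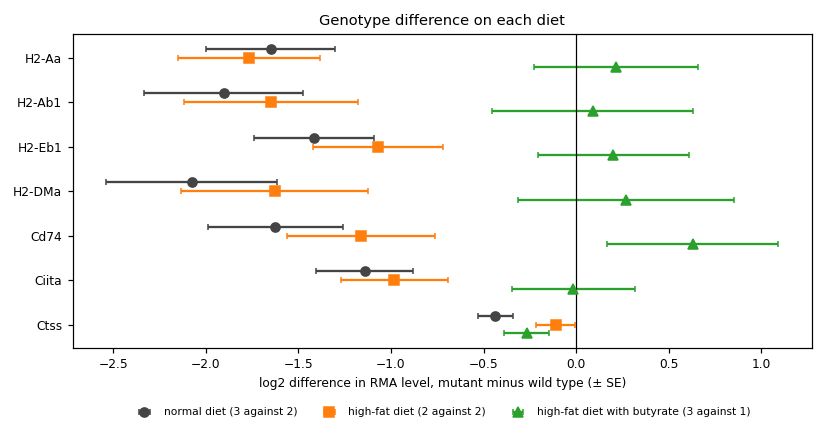
Difference in log2 RMA level, mutant minus wild type, with its standard error from limma, for each gene on each diet; the legend gives the number of mutant and wild-type arrays. All 7 points are below 0 on the normal and the high-fat diet, whereas with butyrate 5 points are above 0 and those of Ciita and Ctss below it.

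When all 13 arrays were fitted with diet as a term, all 7 genes were lower in mutants and none passed by limma, while 1.02% of all genes did. The differences were -1.33 ± 0.37 for H2-DMa, -1.31 ± 0.34 for H2-Ab1, -1.21 ± 0.31 for H2-Aa, -0.89 ± 0.33 for Cd74, -0.89 ± 0.26 for H2-Eb1, -0.80 ± 0.20 for Ciita and -0.28 ± 0.07 for Ctss. All 7 had an unadjusted p under 0.05, and the adjusted p lay between 0.0661 for Ctss and 0.188 for Cd74. Single butyrate arrays decided this count. Without the wild-type butyrate array 6 passed (all but Ctss), without mutant butyrate array 1 also 6 (all but Ciita), and without mutant butyrate array 3 Ciita alone.

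None of the 7 members passed a comparison of high-fat with normal diet, in which array series and diet cannot be told apart. In wild type the differences between high-fat and normal diet ran from -0.75 ± 0.50 for H2-DMa to 0.32 ± 0.29 for Ciita. None of the 7 passed by limma or had an unadjusted p under 0.05, although 11% of all genes passed. In mutants they ran from -0.71 ± 0.35 for H2-Aa to 0.48 ± 0.26 for Ciita, again with none passing and none under an unadjusted 0.05, and 17.7% of all genes passed. Ciita was higher on both mutant high-fat arrays than on the 3 mutant normal-diet arrays, while H2-Aa was lower on both (adjusted p = 0.239 and 0.194). On the second probe set of H2-Aa these groups overlapped and differed by -0.27 ± 0.38.

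In mutants given butyrate H2-Aa was higher than on high-fat diet alone, by 1.54 ± 0.35 (2.91-fold, adjusted p = 0.01), and all 3 butyrate arrays exceeded both high-fat arrays. It was the only member to pass, where 21.7% of all genes did. It missed the threshold without mutant high-fat array 1 (1.46, adjusted p = 0.0709). The call also rested on the probe set. The second probe set of H2-Aa, on which the groups did not overlap either, differed by 0.91 ± 0.38 and did not pass (adjusted p = 0.11), and the distance between both probe sets was smallest on mutant high-fat array 1. H2-Ab1 differed by 1.26 ± 0.43 (adjusted p = 0.0587) and H2-DMa by 1.12 ± 0.46 (adjusted p = 0.108), both also without overlap. Of the other probe sets of H2-Ab1 1 passed (1.39 ± 0.42, adjusted p = 0.0348) and 1 did not (1.09 ± 0.39, adjusted p = 0.0665). H2-Ab1 and H2-DMa passed as well without mutant butyrate array 2 (1.67 and 1.54) and without either wild-type normal-diet array. For H2-Eb1 (0.56), Cd74 (0.45), Ciita (0.14) and Ctss (-0.07) the groups overlapped. Set against mutants on normal diet, the butyrate mutants differed by 0.05 (Ctss) to 1.03 (H2-Ab1). None of these passed by limma, 5 had an unadjusted p under 0.05, and 1.57% of all genes passed. Without mutant butyrate array 2, H2-Aa (1.17) and H2-Ab1 (1.44) passed.

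Across the 13 arrays the members followed each other. Pearson's r between pairs of the 7 genes was 0.62 to 0.98 over 13 arrays, and 0.84 to 0.98 among the 10 pairs of H2-Aa, H2-Ab1, H2-Eb1, H2-DMa and Cd74. Once each group's mean was taken away, these 10 pairs still had r of 0.79 to 0.98. Such r within groups rest mainly on wild type on normal diet and mutants with butyrate. There the mean of the 7 genes spread most (9.997 and 10.88, and 9.10 to 10.26). The single wild-type butyrate array adds nothing to them. Ciita and Ctss correlated least, with each other at 0.62, and at 0.12 within groups. All values of one array come from the same RNA, so the points share their tissue sample. Wild-type normal-diet array 2 was the highest of the 13 for 6 members, and wild-type high-fat array 2 for Ciita.

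The 10 other genes whose levels followed the mean of the 7 most closely over 13 arrays were Mmp7 (r = 0.92), Ifi47, Ccl6, Psmb8, Mptx1, Limd2, Cd48, Cxcl9, Cd5 and Lyz2 (r = 0.87). Predicted genes and the other class II chains were left out of this ranking. Mmp7 is the protease of Paneth cells, Ifi47 a GTPase induced by interferon gamma, Ccl6 and Cxcl9 chemokines, and Psmb8 an immunoproteasome subunit whose gene lies in the MHC region. Cd48 and Cd5 are surface proteins of leukocytes and Lyz2 is the macrophage lysozyme. Mmp7, for instance, read 10.10 and 11.04 in wild type and 8.09, 8.23 and 7.80 in mutants on normal diet. With butyrate it read 9.64, 6.91 and 9.05 on mutant arrays 1, 2 and 3, with array 2 the lowest. Mmp7 was picked for following the members over these same arrays, so this is not a separate result.

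**Figure D3:**
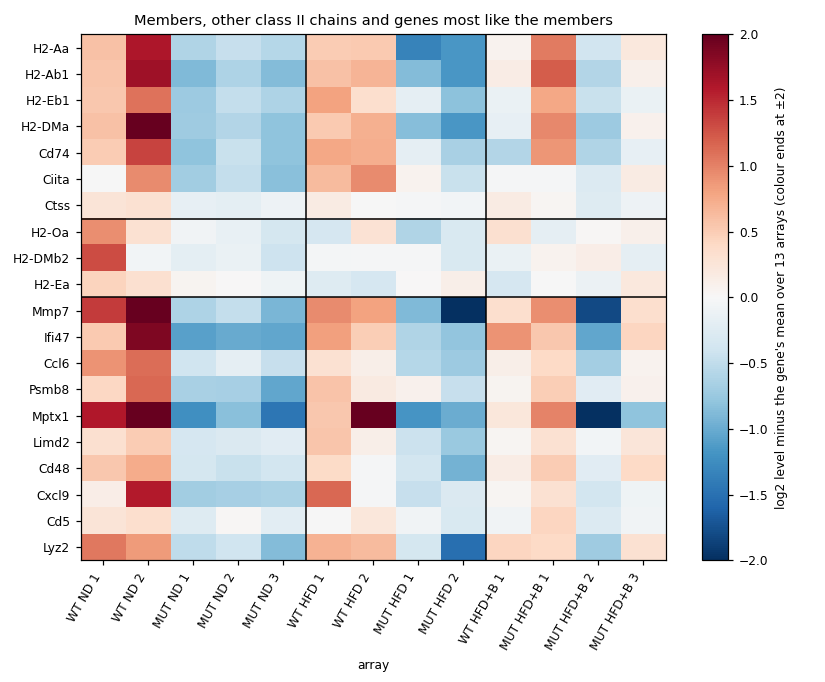
Log2 level of each gene (rows) on each array (columns) minus that gene's mean over the 13 arrays, with the 7 members at the top, 3 other class II chains in the middle and the 10 genes most like the members below; red is above the gene's mean and blue below. The members are mostly red on wild-type and mostly blue on mutant arrays of normal and high-fat diet, and all but Ciita are above their mean on mutant butyrate array 1, while H2-DMb2 and H2-Oa are reddest on wild-type normal-diet array 1.

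Of 3 other class II chains that were measured, none passed in the 9 arrays by limma, and 1 had an unadjusted p under 0.05. This was H2-Oa (-0.64 ± 0.17, adjusted p = 0.0687), a chain of the H2-O protein that restrains H2-DM in B cells and holds the X and Y box pair in its promoter. H2-DMb2, a partner of H2-DMa, differed by -0.54 ± 0.25 (adjusted p = 0.297), and H2-Ea, the partner of H2-Eb1, by -0.05 ± 0.14 (adjusted p = 0.904). Both H2-Oa and H2-DMb2 were highest on wild-type normal-diet array 1 (5.74 and 6.18, against at most 5.12 and 5.00 on the other 12 arrays). That array also had the highest mean of 9 B cell markers, 5.98 against at most 5.12 elsewhere. The small difference of H2-Ea joined diets on which the genotypes stood in opposite order, without overlap on either. On normal diet it read 7.58 and 7.45 in wild type and 7.18, 7.14 and 7.05 in mutants (-0.39 ± 0.12, adjusted p = 0.214). With the high-fat diet the values were 6.87 and 6.79 in wild type and 7.13 and 7.25 in mutants (0.36 ± 0.13, adjusted p = 0.344). The genotype difference on high-fat minus that on normal diet was 0.75 ± 0.18 for H2-Ea (unadjusted p = 0.00155 by limma) and missed the threshold (adjusted p = 0.915). Within wild type H2-Ea fell by 0.68 ± 0.13 from normal to high-fat diet (adjusted p = 0.0102). In that comparison 11% of all genes passed, and diet and array series cannot be told apart. These H2-Ea values are those of its brightest probe set. Its dimmer probe sets, at 3.00 to 3.83 and 2.10 to 2.57, overlapped between genotypes on normal diet. On high-fat diet mutants were higher on the first of these (3.52 and 3.27 against 3.258 and 3.215). On the second they were lower (2.174 and 2.158 against 2.22 and 2.235).

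None of 7 measured genes for the proteins that CIITA works with passed in the 9 arrays by limma. These were the RFX subunits Rfx5, Rfxap and Rfxank, the NF-Y subunits Nfya, Nfyb and Nfyc, and Creb1, and none of them had an unadjusted p under 0.05. Their differences ran from -0.22 ± 0.12 (Nfya) to 0.13 ± 0.09 (Rfxank), with a median of 0.01. Of 10 measured genes of interferon gamma signalling, none passed, and 6 had an unadjusted p under 0.05, 3 in each direction. Among them Jak1, a receptor kinase, differed by 0.25 ± 0.08 (adjusted p = 0.119), Irf1, a transcription factor that induces Ciita, by -0.31 ± 0.12 (adjusted p = 0.17) and Socs1, a feedback inhibitor, by -0.25 ± 0.09 (adjusted p = 0.155). Ifng itself was near the bottom of the scale (means of 2.66 in mutants and 2.80 in wild type over the 9 arrays). These pooled differences join diets on which the mean of the 10 genes stood in opposite order, without overlap on either. On normal diet it was 8.05 to 8.06 in wild type and 7.87 to 7.93 in mutants. On high-fat diet it was 8.20 to 8.24 in wild type and 8.28 to 8.34 in mutants. The list means were not tested.

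Of 8 measured genes that process antigen for class II, Cst3, the cathepsin inhibitor cystatin C, fell by 0.52 ± 0.12 (adjusted p = 0.0373) and Ctsh, cathepsin H, rose by 0.38 ± 0.07 (adjusted p = 0.0186). Cathepsins B, D, L and Z, Lgmn and the thiol reductase Ifi30 did not pass, and the median of the 8 was -0.08. Of 10 measured class I genes all were negative, with a median of -0.34, but only Psmb8 passed (-1.11 ± 0.23, adjusted p = 0.0269). The class I chain H2-K1 and its partner B2m differed by -0.26 each (adjusted p = 0.0583 and 0.0681). None of 8 genes of costimulation and T cell help passed by limma, and 1 of them, Cd86 (-0.23 ± 0.10), had an unadjusted p under 0.05.

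Among markers of cells that carry class II, those of leukocytes in general and of macrophages fell most often. Most B cell and dendritic cell markers did not pass, though 9 of 9 and 9 of 10 had a negative difference in the 9 arrays. All 8 pan-leukocyte markers fell in mutants in the 9 arrays (median -0.91), among them Ptprc, the common leukocyte antigen CD45 (-0.95 ± 0.12, adjusted p = 0.0033), and Cd53 (-1.09 ± 0.12, adjusted p = 0.0017). Of 16 macrophage markers 12 fell and none rose (median -0.91), including Lyz2 (-1.57 ± 0.20), the signalling adaptor Tyrobp (-1.10 ± 0.13) and the complement gene C1qa (-0.96 ± 0.14). Of 10 dendritic cell markers 3 fell, namely Itgax, the integrin CD11c (-0.83 ± 0.10), Batf3 (-0.58 ± 0.12) and Itgae (-0.55 ± 0.12). Cd79b was the only one of 9 B cell markers to pass (-0.89 ± 0.20), and Cd3d, Cd3g and Gzma were the 3 of 10 T cell markers to do so, all lower. Of 10 epithelial markers 1 passed, the keratin Krt18, which rose by 0.56 ± 0.11, and their median was 0.09.

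On normal and high-fat diet the mean levels of the pan-leukocyte and macrophage lists did not overlap between genotypes and were lower in mutants. The same order without overlap held for the T cell, B cell, dendritic cell, class I and costimulation lists. Means of the epithelial list did not overlap either, but with mutants higher, on normal diet only just. Those of the interferon gamma signalling list, given above, were lower in mutants on normal diet and higher on high-fat diet. The mean of the 8 pan-leukocyte markers was 8.17 to 8.59 in wild type against 7.28 to 7.59 in mutants on normal diet, and 7.87 to 8.10 against 6.94 to 7.36 on high-fat diet. With butyrate it was 7.78 in wild type and 7.32 to 7.92 in mutants. For the 16 macrophage markers the means were 7.48 to 7.68 against 6.86 to 7.02 on normal diet, 7.36 to 7.63 against 6.40 to 6.94 on high-fat diet, and 7.44 against 6.89 to 7.41 with butyrate. Over 13 arrays the mean of the 7 members correlated with the pan-leukocyte mean at 0.84 and with the macrophage mean at 0.82, and within groups at 0.34 and 0.45. With the T cell mean it correlated at 0.86 and within groups at 0.75, and with the class I mean at 0.87 and 0.93. The dendritic cell mean gave 0.76 and 0.16, and the B cell mean 0.42 and, within groups, -0.62. In whole tissue, fewer cells of a type and less RNA per cell cannot be told apart, and the part of leukocyte markers in the fall of the class II genes was not tested. The medians were -1.41 for the members and -0.91 for both leukocyte lists, and the difference between these was not tested either.

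Pancreatic enzyme genes, markers of tissue next to the duodenum, varied between arrays within groups. Their list mean ranged from 5.66 to 13.35. On high-fat diet it was 11.19 to 13.20 in wild type and 5.66 to 10.62 in mutants, and with butyrate 11.82 against 5.74 to 10.87. The genotypes overlapped on normal diet (6.48 to 11.04 in wild type and 6.30 to 13.35 in mutants). The r of the list mean with the mean of the 7 genes was 0.03 over 13 arrays. With the pancreas list mean as a covariate the same number of members, 6, passed in the 9 arrays. The mean of 5 duodenum position markers, among them Pdx1 and Cybrd1, also differed between arrays. With butyrate it was 8.11 on mutant array 2, against 7.28 and 7.53 on mutant arrays 1 and 3 and 7.15 in wild type. On high-fat diet it was 8.30 to 8.38 in wild type and 8.77 to 9.32 in mutants, and the genotypes overlapped on normal diet. Its r with the mean of the 7 genes was -0.28 over 13 arrays and -0.51 within groups. The part of this list was not tested.

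**Figure D4:**
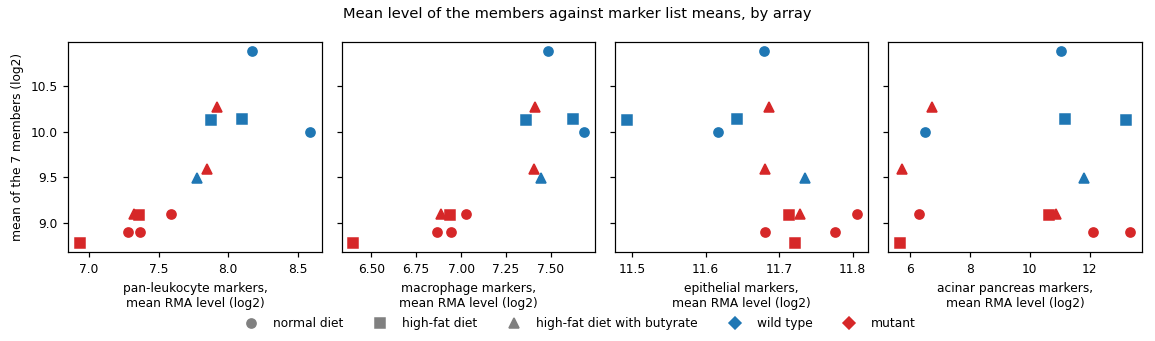
Mean log2 level of the 7 class II genes (vertical axis) against the mean log2 level of 4 marker lists (horizontal axes), with 1 point an array; colour gives genotype and shape gives diet. The members are high where pan-leukocyte and macrophage markers are high (r of 0.84 and 0.82 over 13 arrays), whereas acinar pancreas markers spread from 5.66 to 13.35 with no such order (r = 0.03).

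Of the members, H2-Aa, H2-Ab1 and Ciita have further probe sets with their symbol alone, 4 in all, and each gave a lower level in mutants past the threshold in the 9 arrays. The second probe set of H2-Aa gave -1.57 ± 0.17 (adjusted p = 0.0021) and that of Ciita -0.95 ± 0.19 (adjusted p = 0.0235). The other 2 probe sets of H2-Ab1 gave -2.12 ± 0.16 and -1.78 ± 0.16.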

How the data were processed

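Duodenum RNA of 13 mice, 200 ng each, was measured on Affymetrix arrays. The deposited values are on a log2 scale and were made by the authors with Affymetrix Expression Console 1.1 and RMA, which corrects background, normalizes by quantiles and summarises probes, per the submitters' processing notes. The labelling kit in the labels is one for whole transcripts and the probe sets belong to an array of transcript 3' ends, so the chemistry is not certain. The number of arrays limits the precision. The mutated gene is not reported here. The design text calls the samples mice, and no label states separate litters or extractions, so p-values measure only the spread between these samples.

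Of 22690 probe sets 20380 had exactly 1 symbol in the platform annotation, 691 several and 1555 none, and the brightest probe set stood for each of 12393 genes. Values of no pair of arrays were equal, to 3 decimals, at more than 408 probe sets. R 4.3.3 and limma 3.58.1 (eBayes with an intensity trend, two-sided) were used, and every adjusted p is limma's with Benjamini-Hochberg adjustment over all genes at 0.05. There were 12 comparisons. The 2 fits with diet as a term used 13 or 9 arrays, and all others used the 6 group means of 13 arrays, which assumes that the single wild-type butyrate array varies like the rest. The fitting was checked on simulated data.

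The members, the 15 other gene lists and the tests were chosen with earlier results of these data known. Up to 4 genes a list with the smallest p in the 9 arrays were named, with all class II chains and class II transcription factors, and the 10 genes most like the members. Epcam, Vil1, Krt20, Rfx5, Ifng and a few other list members were named beside these. Alternatives were quantile normalization again, leaving out dim genes (under the 30th percentile), averaging all probe sets of a gene, no trend, array weights, only the arrays compared, the replicate number as a block, the pancreas list as a covariate, other probe sets and leaving out each array. Other probe sets in comparisons between diets were added after seeing the data. Promoter windows are from RefSeq, and 4 members had one.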

Additional observations from a re-analysis of the deposited data

How the results depend on the processing

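In the 9 arrays without butyrate the count of members called stayed at 6 under every alternative that was run except 2. It was 5 where dim genes, those under the 30th percentile, were left out, a step that removes Ciita, and leaving out each of the 9 arrays gave 6 to 7. The same 6 genes had adjusted p of 0.0495 or less in each of these fits that held them, and all 7 genes kept their negative sign there. The fit of 13 arrays gave 2 with array weights, 1 with the pancreas list as a covariate and 0 to 6 with each array left out, and all 7 kept their negative sign in each alternative run. With the replicate number as a block (replicate block) it gave 6, and because the wild-type butyrate array carries no number, the block takes that array out of the genotype difference. The block moved no other count by more than 1.5 times. Deviations from group means of arrays with the same number had r of -0.24 and -0.33 for the normal-diet pairs and 0.01 for the high-fat pairs. In a group of 2 arrays the deviations mirror each other, so these r cannot decide whether the numbers pair the mice. The main fits took no pairing. No paired fit could be made of the comparisons that need the wild-type butyrate array as a group.

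With only the compared arrays in the fit, 1 member passed on normal diet (H2-Eb1), 1 on high-fat diet (H2-Aa) and 1 between high-fat and normal diet in mutants (H2-Aa, adjusted p = 0.0028). That alternative was not run for the comparison with the mean of both other diets, which uses all arrays. Leaving out each array gave 0 to 6 on normal diet, 0 to 1 on high-fat diet, 0 to 3 for butyrate against high-fat diet and 0 to 2 for butyrate against normal diet in mutants. Array weights gave 3 for butyrate against high-fat diet in mutants. The other counts of 0 stayed at 0 in every alternative run. The causes were not tested.

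Signs turned in these differences, none of which was called, and ranges are those over arrays left out in turn. For mutant against wild type with butyrate, Ciita gave 0.0508 with its probe sets averaged, 0.117 with its other probe set, 0.0221 with array weights, 0.0608 with the pancreas covariate and -0.121 to 0.0983. The ranges there were -0.158 to 0.552 for H2-Aa, -0.397 to 0.504 for H2-Ab1, -0.156 to 0.457 for H2-Eb1 and -0.156 to 0.687 for H2-DMa, with the low end in each case without mutant butyrate array 1. For high-fat against normal diet in wild type they were -0.156 to 0.799 for Ciita, -1.05 to 0.0868 for H2-Ab1, -0.526 to 0.0323 for H2-Eb1, -1.54 to 0.0303 for H2-DMa and -0.608 to 0.24 for Cd74, and in mutants -0.225 to 0.422 for H2-Eb1. For butyrate against high-fat diet in mutants, Ciita gave -0.0771 with its probe sets averaged, -0.294 with its other probe set and -0.116 to 0.396, and Ctss gave -0.14 to 0.00474. Against normal diet Ctss gave -0.0198 to 0.125. For the genotype difference on high-fat minus normal diet, averaged probe sets gave 0.0155 for H2-Aa and -0.0965 for Ciita. The ranges were -0.629 to 0.399 for H2-Aa, -0.315 to 0.826 for H2-Ab1, -0.335 to 1.23 for H2-DMa and -0.317 to 0.639 for Ciita. For butyrate against the mean of both other diets Ctss, at 0.007, gave -0.00633 with the pancreas covariate and -0.0643 to 0.0802.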

Other observations

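The 2 probe sets of H2-Aa were not a fixed distance apart. The brighter exceeded the other by 0.07 on mutant high-fat array 1 and by 1.44 on the wild-type butyrate array, and by 0.55 to 1.29 on the other 11 arrays. The mice had a mixed strain background, and whether they differed in alleles at this locus was not tested.

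Probe sets of the class I gene H2-D1 disagreed between arrays, and arrays of the same genotype and diet were split in this. The 4 arrays set apart were wild type except for mutant butyrate array 3, and no mutant array on normal or high-fat diet was among them. A probe set dimmer than the one used for this gene read 8.21 to 9.45 on 4 arrays (wild-type normal-diet array 2, wild-type high-fat array 2, the wild-type butyrate array and mutant butyrate array 3) and 10.44 to 11.64 on the other 9. On the brightest probe set of the same gene the same 4 arrays read 12.05 to 12.51 and the other 9 read 11.69 to 12.28. These groups of arrays were chosen by the values of the first probe set, so no test was made, and the part of alleles of the mixed background was not tested.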
